A study of Mus musculus with 3 samples.

Results

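The genes described here encode fibronectin (Fn1) and 9 matricellular or related matrix-binding proteins: periostin (Postn), sushi-repeat protein Srpx2, tenascin-C (Tnc), Sparc, Sparcl1, thrombospondins 1 and 2 (Thbs1, Thbs2), osteopontin (Spp1) and Smoc2. They are 10 of the 18245 genes in the expression table, found by symbol, and all 10 were listed. Postn, Srpx2 and Fn1 were chosen by their measured levels, which stand out in the primary epicardial cells. Their levels there are therefore given as a description, with no test. The whole list was proposed from earlier results of these data. Counts of members called and their p-values are thus not independent evidence. The levels were read in 3 kinds of cultured C57BL/6 mouse cell, all labelled as coming from the epicardium of the ventricle, the sheet of cells that covers the heart. CDC are cardiosphere-derived cells, and they received no inhibitor. Cells growing out of epicardial explants of 6-week-old hearts were harvested and reseeded, and these formed spheres. Spheres that detached were plated and expanded as fibroblast-like cells. CDC-EpiC grew from CDC that received 10 µM SB-431542, which blocks the kinase of the type I TGF-beta receptor, over 2 weeks. An epithelial patch of that culture was ringed with a cylinder and expanded, so the libraries come from 1 clone, with no second clone and no unpicked SB-431542 culture beside it. pEpiC are cells labelled as primary epicardial, untreated, released by repeated digestion of dissected 6- to 8-week-old hearts. For CDC the study's methods peeled the epicardium off the heart first, and for pEpiC they describe digestion of the heart with no such step. They grew CDC on fibronectin-coated plastic in a medium rich in serum and pEpiC on gelatin in another medium. The kind of cell, its isolation and its culture thus cannot be told apart. Each kind had 3 library columns, taken as replicates (n = 3). The labels do not say whether they are separate animals or cultures, and the study's methods speak of fewer biological replicates per condition than there are columns, so some columns may share a source. The p-values measure only the spread between these libraries, which may be technical.

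Matricellular proteins are secreted into the extracellular matrix, where they do little to hold tissue together but bind receptors, growth factors and structural fibres and so change how cells adhere and migrate. Fibronectin is a structural glycoprotein on which many of them assemble, and cells grip it through integrins such as alpha 5 beta 1. In the heart, several of these genes, though not all, are low in quiet adult muscle and are known for their induction after injury, mainly in fibroblasts and, for osteopontin, also in macrophages. TGF-beta is a known inducer of several of them, among them Fn1, Postn, Tnc and Thbs1.

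Libraries held 22008833 to 22756045 expected counts each. Of 11 epicardial and mesothelial markers, the summed level was 683 to 712 CPM (counts per 1000000 counts of the library, TMM-scaled) in CDC, 5787 to 6750 in CDC-EpiC and 562 to 597 in pEpiC. The cells labelled primary epicardial thus had the lowest sum. Yet 6 of the 11 markers were higher in pEpiC than in CDC and 5 lower (edgeR adjusted p under 0.05, 78.3% of all genes called). In the clone, 6 of 9 tested were higher than in CDC and 2 lower (68.8% called). Against pEpiC, 7 of 11 were higher in the clone and 4 lower (81.9% called). The mesothelial gene Upk3b, one of the abundant ones, was at 69.4 ± 8.33 CPM in pEpiC, against 229 ± 8.35 in CDC and 2655 ± 206 in the clone (SD, n = 3). The epicardial regulators Wt1 (51.1 ± 3.88 CPM) and Tcf21 (102 ± 6.80 CPM) were nevertheless present in pEpiC and above CDC (10.0 ± 1.11 and 12.3 ± 0.196 CPM). Of 10 fibroblast markers, the sum was 31643 to 34466 CPM in pEpiC, 9766 to 12843 in CDC and 6662 to 8172 in CDC-EpiC. Macrophage markers summed to 308 to 858 CPM in pEpiC, 57.8 to 61.2 in CDC and 22.6 to 25.1 in CDC-EpiC. Smooth muscle markers summed to 2131 to 2657 CPM in CDC, 864 to 1206 in CDC-EpiC and 1079 to 1111 in pEpiC. Endothelial markers summed to 18.5 to 21.3 CPM in pEpiC, 0.589 to 1.81 in CDC and 1.41 to 1.51 in CDC-EpiC. Cardiomyocyte markers were at or below 27.1 CPM in CDC and the clone and at 137 to 154 CPM in pEpiC. Sums follow the abundant genes. Of 6 smooth muscle markers, 2 were higher and 2 lower in pEpiC than in CDC (78.3% of all genes called). In the clone against pEpiC, 5 were lower and 1 higher (81.9% called). Of 8 cardiomyocyte markers, 4 had 3 counts or fewer in every pEpiC library. Of the 3 tested against CDC, 1 was higher and 2 did not pass. In a bulk library, fewer cells of a type and less RNA per cell cannot be told apart.

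Promoter sequence was at hand for 6 of the 10 genes, as 9 windows of 250 bases before a RefSeq start on GRCm38.p6. Of these 6 genes, Postn, Srpx2 and Spp1 differed most between pEpiC and the other kinds, and Tnc was the one lower in pEpiC than in CDC, so 1 window of each is shown. Each is written 5′ to 3′ on the strand of its gene, and capitals mark a match to a searched motif on either strand: TATAAA, the AP-1 site TGANTCA, or the SMAD element CAGACA. On the opposite strand the last of these reads TGTCTG.
Postn, chr3:54360857-54361106, plus strand: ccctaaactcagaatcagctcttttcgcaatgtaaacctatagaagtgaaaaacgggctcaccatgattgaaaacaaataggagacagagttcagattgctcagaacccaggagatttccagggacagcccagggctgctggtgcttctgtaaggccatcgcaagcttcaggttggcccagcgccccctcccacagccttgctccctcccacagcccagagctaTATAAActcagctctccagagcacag
Srpx2, chrX:133908175-133908424, plus strand: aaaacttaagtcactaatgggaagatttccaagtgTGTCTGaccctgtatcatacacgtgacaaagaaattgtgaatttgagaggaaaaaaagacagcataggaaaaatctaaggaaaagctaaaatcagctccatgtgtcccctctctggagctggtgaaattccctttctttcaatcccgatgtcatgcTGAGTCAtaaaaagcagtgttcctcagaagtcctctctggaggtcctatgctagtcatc
Spp1, chr5:104434861-104435110, plus strand: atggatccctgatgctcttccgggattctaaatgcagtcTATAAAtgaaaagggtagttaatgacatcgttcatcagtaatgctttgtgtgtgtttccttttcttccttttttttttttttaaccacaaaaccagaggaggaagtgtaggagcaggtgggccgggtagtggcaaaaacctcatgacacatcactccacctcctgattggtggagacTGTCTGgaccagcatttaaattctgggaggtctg
Tnc, chr4:64047016-64047265, minus strand: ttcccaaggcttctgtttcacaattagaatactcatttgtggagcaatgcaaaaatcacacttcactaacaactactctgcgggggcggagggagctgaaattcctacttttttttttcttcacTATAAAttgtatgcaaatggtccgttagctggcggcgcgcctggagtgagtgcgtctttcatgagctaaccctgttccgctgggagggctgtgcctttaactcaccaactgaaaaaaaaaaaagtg
Counting back from the start, the Postn window held TATAAA at bases 26 to 21, the usual place of a TATA box. Srpx2 held the AP-1 letters at bases 59 to 53 and the SMAD letters at bases 215 to 210. In Spp1 the SMAD letters lay at bases 34 to 29 and TATAAA at bases 211 to 206, and in Tnc TATAAA lay at bases 126 to 121. Over all 9 windows, which also include Sparc, Thbs2 and the other starts of Postn, Tnc and Spp1, TATAAA was found in 5, against 12.4% of 32851 RefSeq promoters of the same length. CAGACA was found in 5 (17.1% of all promoters) and TGANTCA in 1 (6.75%). The TEAD site GGAATG (12.6%) and the CArG box (1.47%) had no match. The Tnc windows overlap, so their matches to TATAAA are the same bases. No match overlapped one of another motif in the windows shown. A match describes letters and is not evidence of binding. The other members, Fn1, Sparcl1, Thbs1 and Smoc2, are named only.

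All 10 are protein-coding genes in the GENCODE annotation of GRCm38, the same assembly as the mm10 build named in the submitters' processing notes. Fn1 lies at chr1:71585520-71653200 on the minus strand with up to 46 exons, Tnc at chr4:63959785-64047015 (minus) and Postn at chr3:54361109-54391037 (plus). Thbs1 lies at chr2:118111876-118127133 (plus) and Spp1 at chr5:104435118-104441050 (plus). Sparcl1 lies upstream of Spp1 on the same chromosome, at chr5:104079111-104113733 (minus). Thbs2 at chr17:14665500-14694235 (minus) and Smoc2 at chr17:14279506-14404790 (plus) share a chromosome as well. Sparc lies at chr11:55394500-55423183 (minus) and Srpx2 at chrX:133908426-133932446 (plus). Fn1, Tnc, Sparcl1, Thbs1, Spp1 and Smoc2 each overlap another annotated gene, and whether counting used strand is not given in the sources used here, so a part of their counts could belong to that neighbour.

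The 10 genes together held 2.79% to 2.98% of all counts in pEpiC, against 1.44% to 1.85% in CDC and 1.04% to 1.27% in CDC-EpiC. Fn1 had more counts than any other gene in each pEpiC library, at 1.5%, 1.53% and 1.69% of the library, and ranked between 2 and 4 in the CDC and CDC-EpiC libraries. Per transcript length (TPM), Sparc was the most abundant member in all 3 kinds, with 2406 ± 297 TPM in CDC, 2916 ± 336 in CDC-EpiC and 7532 ± 160 in pEpiC (SD, n = 3). Fn1 had the next highest mean, at 1686 ± 352 TPM in CDC, 1485 ± 182 in CDC-EpiC and 4620 ± 331 in pEpiC. The plot of TPM by library shows where the order changed between kinds.

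**Figure D1:**
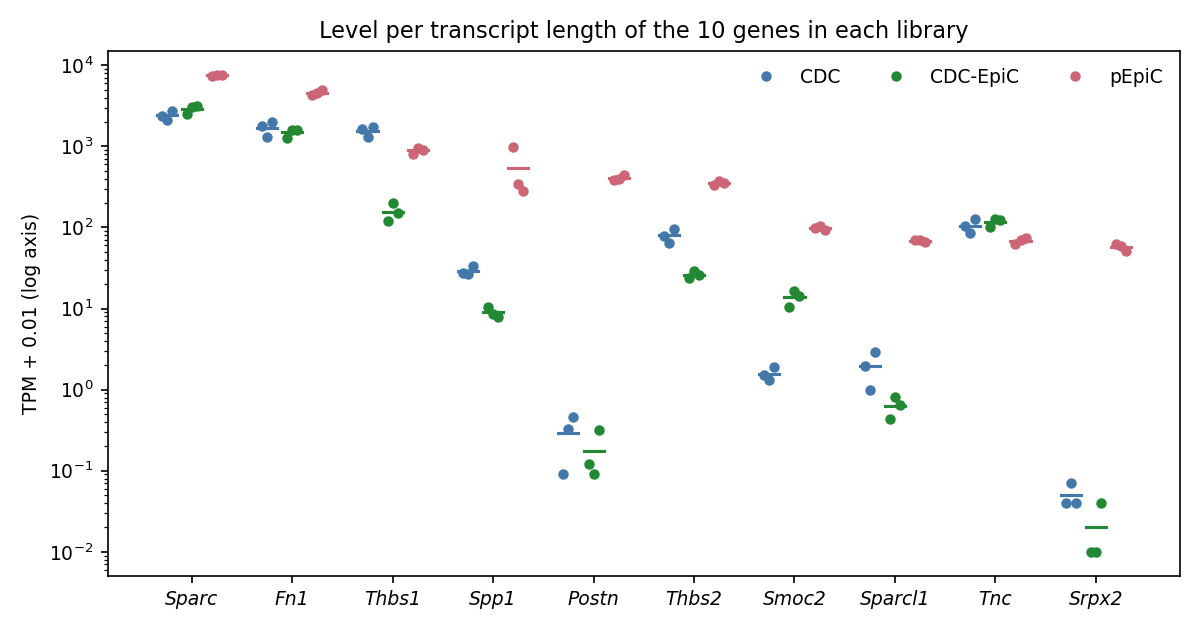
Level of each gene in each library, as TPM (transcripts per 1000000, scaled by transcript length) plus 0.01 on a log axis. Points are the 3 libraries of each kind and short lines their means. Sparc leads in every kind, Fn1 and Thbs1 overlap in CDC, Thbs1 lies below both Sparc and Fn1 in CDC-EpiC and pEpiC, and Postn and Srpx2 leave the bottom of the plot only in pEpiC.

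In CDC, Thbs1 (1568 ± 221 TPM) overlapped Fn1 in range, so their order is not settled, and Tnc (106 ± 19.5 TPM) overlapped Thbs2 (80.3 ± 15.9 TPM). Spp1 followed at 29.3 ± 3.54 TPM, then Sparcl1 and Smoc2, which overlapped, then Postn and last Srpx2. In CDC-EpiC, Thbs1 (156 ± 39.2 TPM) overlapped Tnc (117 ± 12.7 TPM), below them came Thbs2 (26.3 ± 2.42 TPM), and Smoc2 (13.8 ± 3.10 TPM) had a range overlapping that of Spp1 (8.96 ± 1.46 TPM). In pEpiC, Thbs1 (892 ± 68.1 TPM), Spp1 (538 ± 390 TPM) and Postn (407 ± 26.8 TPM) could not be ranked against their neighbours because Spp1 spread across them, and Sparcl1 (69.0 ± 2.15 TPM) overlapped Tnc (68.9 ± 5.91 TPM). By mean TPM, Postn thus took rank 9 among the members in CDC and in the clone and rank 5 in pEpiC. The rank in pEpiC is not settled. Spp1 there ranged from 285 to 988 TPM, across Postn and also Thbs2 (337 to 378 TPM). Srpx2 was the least abundant in all 3 kinds, pEpiC included (57.7 ± 5.77 TPM).

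The comparison of the clone with CDC asks how the epithelial cells picked under SB-431542 differ from the cells they came from. Thbs1, Thbs2, Spp1 and Sparcl1 fell in CDC-EpiC, Thbs1 by most, and Smoc2 alone of the members tested rose. Fn1, Sparc, Tnc and Postn did not pass the test. Of 9 members tested, 5 passed (edgeR quasi-likelihood test, Benjamini-Hochberg adjusted p under 0.05), 1 higher and 4 lower, in a comparison that called 68.8% of 12976 genes, 34.2% higher and 34.6% lower. Srpx2 was below the filter on low counts. The libraries of CDC and the clone did not overlap for the same 5 members, as for 72% of all genes. In this test the share of members called is no higher than the background. Against a 1.5-fold change, 5 of the 9 members and 3664 of all genes were called, the latter in place of 8928.

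The comparison of pEpiC with CDC asks how cultured cells labelled as primary epicardial differ from CDC labelled as coming from the same layer. Of the 7 members open to a test, Sparc, Sparcl1, Thbs2, Spp1 and Smoc2 were higher in pEpiC, and Tnc and Thbs1 were lower. These members were proposed from earlier results of the same data, so their calls are no independent support. All 7 passed, in a comparison that called 78.3% of 13526 genes, with 39.8% higher and 38.5% lower, and all 7 were without overlap, as were 81.5% of all genes. Per length the background itself shifts: on log2(TPM + 1), 8237 genes were higher and 2822 lower, in place of 5380 and 5213 on counts, and the median over all genes was 0.41 (log2) above 0, against 0.13 with library size alone. With TMM the counted change was larger by 0.39 (log2) for each doubling of transcript length across all genes, and the longest member transcripts are those of Fn1, Tnc, Thbs2 and Thbs1. A test against a 1.5-fold change called 7 of the 7 members and 5549 of all genes, the latter in place of 10593.

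The clone was also set against pEpiC, the primary cells labelled as coming from the same layer. Of the same 7 members, Tnc was higher in CDC-EpiC, and Sparc, Sparcl1, Thbs1, Thbs2, Spp1 and Smoc2 were lower. All 7 passed where 81.9% of 13547 genes did, with 40.3% higher in the clone and 41.5% lower, and all 7 were without overlap, as were 83.7% of all genes. On log2(TPM + 1), 3691 genes were higher and 7541 lower, in place of 5465 and 5626, and the median over all genes was −0.33. Called against a 1.5-fold change were 7 of the 7 members and 6578 of all genes, the latter in place of 11091. The length trend was of like size in the other direction, at −0.40 (log2) per doubling, and was near 0 between the clone and CDC (−0.00077). Each pair of comparisons shares 1 kind of cell, so the changes are not independent of each other.

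**Figure D2:**
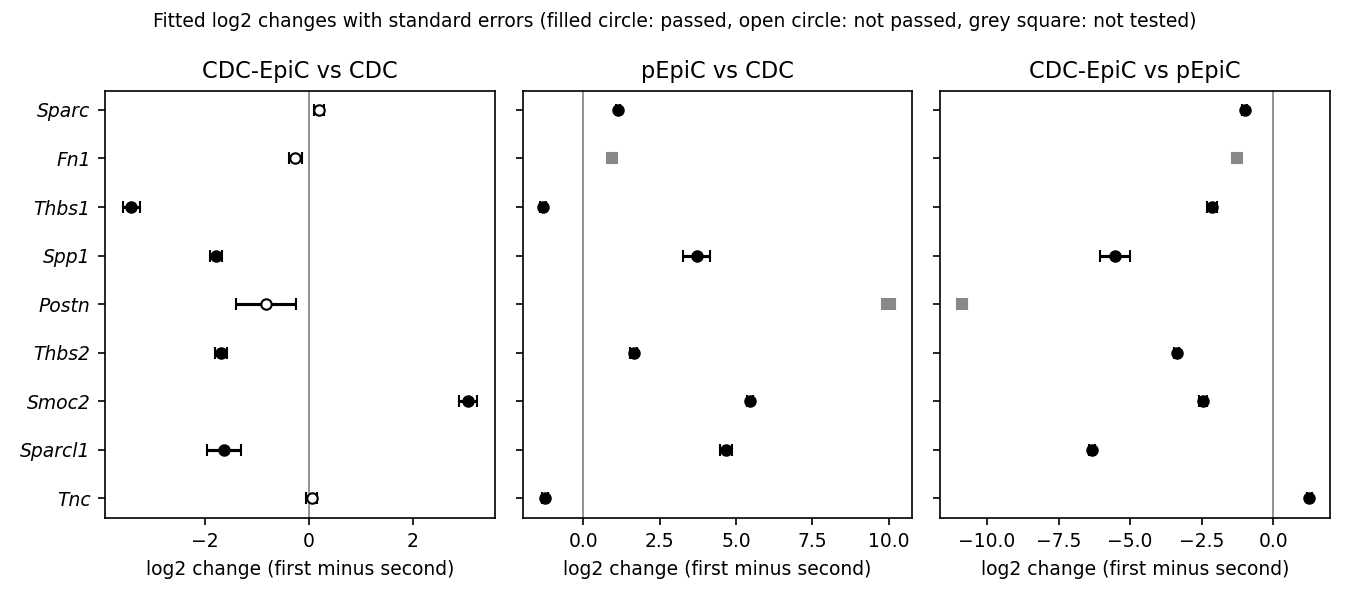
Fitted log2 changes of the members in the 3 comparisons, first kind minus second, with standard errors. Circles are tested members, filled where the adjusted p is under 0.05. Grey squares (Postn and Fn1 in the comparisons with pEpiC) were not tested, and Srpx2 is left out because it was at or near 0 counts in CDC and the clone. Postn lies at 10.00 and −10.86 against pEpiC, and Smoc2 (3.06) is the filled point to the right of 0 in the first panel.

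Fibronectin (Fn1, the cell-binding glycoprotein of the provisional matrix) was at 8425, 6144 and 8730 CPM in the CDC libraries, 5612, 7137 and 6840 CPM in CDC-EpiC, and 14669, 15009 and 16743 CPM in pEpiC. All pEpiC libraries lay above all others, while CDC and the clone overlapped. The fitted difference of pEpiC from CDC was 0.95 ± 0.12 (log2, SE), or 1.93-fold, and that of the clone from pEpiC was −1.25 ± 0.10. Removing the trend with transcript length gave 0.41 and −0.69 (the Fn1 transcript, at 8104 bases, is the longest of the 10), while on log2(TPM + 1) pEpiC exceeded CDC by 1.47. Between the clone and CDC the change in Fn1 was −0.26 ± 0.13 (edgeR adjusted p = 0.0941). It passed without CDC library 2 (−0.40, adjusted p = 0.00656) and by DESeq2 (−0.26, adjusted p = 0.0492).

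Periostin (Postn, a collagen- and integrin-binding protein taken as a mark of activated fibroblasts) had 3, 13 and 17 counts in CDC and 4, 3 and 12 counts in CDC-EpiC, against 11932, 11673 and 13179 counts in pEpiC. In pEpiC this came to 534 ± 37.2 CPM (SD, n = 3). The other kinds had means under 1 CPM and overlapped. The ratio of pEpiC to CDC, from summed counts, was 1065 (95% interval 758 to 1548, counting error only), and that of pEpiC to the clone was 1889 (1210 to 3139). CDC-EpiC library 3 held 12 of the 19 counts of the clone, and without it the fitted difference of the clone from pEpiC went from −10.86 to −11.68 (log2). The clone was not told apart from CDC (log2 change −0.82 ± 0.58, edgeR adjusted p = 0.223). Leaving out CDC library 1, the lowest, gave −1.26 (adjusted p = 0.0473), and the other omissions gave −1.66 to −0.37. No library of either kind held over 17 counts of Postn, so a change between them is poorly resolved at this depth.

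Srpx2, a secreted ligand of the urokinase receptor with a chondroitin sulphate chain, showed the same split at a lower level. It had 1, 2 and 1 counts in CDC, 0, 0 and 1 in CDC-EpiC, and 1766, 1611 and 1418 in pEpiC (69.6 ± 7.26 CPM; SD, n = 3). A count of 0 at this depth allows up to 3 counts, so CDC and the clone cannot be told apart, and no fold between them is given. The ratio of pEpiC to CDC was 1146 (95% counting interval 447 to 4206), and that of pEpiC to CDC-EpiC was 4680 (839 to 184870), whose width reflects the single count in the clone. Fibroblast, macrophage, endothelial and cardiomyocyte marker sums were also highest in pEpiC, as given above. The part of these cell types in the levels of Fn1, Postn and Srpx2 was not tested.

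The genes that followed these 3 most closely over the 9 libraries were sought among 9473 genes of at least 10 CPM on average, by the root mean square difference of centred log2(CPM + 1) profiles. Nearest to Postn were Pdpn, a mucin-type glycoprotein of mesothelial and lymphatic cells (difference 0.38), Gpx3, a secreted glutathione peroxidase (0.46), and Mfap4, a microfibril protein (0.52). Pdpn was at 0.288 CPM in CDC, 0.193 in CDC-EpiC and 291 ± 10.5 in pEpiC. For Srpx2 they were Naalad2 (0.16), Adgrd1 (0.17) and Adamtsl2 (0.19), of which Adamtsl2, a secreted protein that binds fibrillin, was at 0.198, 0.164 and 100.02 ± 2.45 CPM in the same order. Fn1 was nearest to Col4a1, a basement membrane collagen chain (0.08), at 1415 ± 153 CPM in CDC, 1263 ± 135 in CDC-EpiC and 2769 ± 106 in pEpiC, and then to Tmem131 (0.10) and Golim4 (0.11). With 3 kinds of cell, a likeness of profile rests on few levels.

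Tenascin-C (Tnc, a large oligomeric protein that weakens adhesion to fibronectin) went the other way. Its CDC libraries were at 426, 354 and 475 CPM, CDC-EpiC at 382, 485 and 446 CPM, and pEpiC at 166, 181 and 196 CPM. All pEpiC libraries lay below all others, and CDC and the clone overlapped. Tnc was 2.38-fold lower in pEpiC than in CDC (log2 change −1.25 ± 0.10, edgeR adjusted p = 1.62e-06) and 2.41-fold higher in CDC-EpiC than in pEpiC (1.27 ± 0.09, adjusted p = 4.73e-07). These depended on how length was treated: they were −0.60 and 0.75 on log2(TPM + 1), with adjusted p = 0.00145 and 3.31e-05, and −1.75 and 1.76 with the length trend removed from the counts. The clone was not told apart from CDC (0.06 ± 0.11, adjusted p = 0.647), and the sign of this small change turned without CDC library 2 (−0.05) or CDC-EpiC library 2 (−0.03).

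Within a library, the ratio of Fn1 to Tnc compares the fibronectin transcript with that of its modulator. It was 17.1, 14.95 and 15.7 (TPM over TPM) in CDC, 12.4, 12.6 and 13.0 in CDC-EpiC, and 69.1, 65.4 and 66.9 in pEpiC. None of the kinds overlapped, and pEpiC stood far above the others, with means of 15.9 ± 1.07, 12.7 ± 0.304 and 67.2 ± 1.84 (SD, n = 3). With 3 libraries against 3, an exact test cannot go below p = 0.10, and the ratio contains Fn1, so it is given without a test.

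Thrombospondin 1 (Thbs1, a trimeric glycoprotein that activates latent TGF-beta and restrains vessel growth) was the member with the steepest fall in the clone. It was at 5610, 4543 and 5583 CPM in CDC, 384, 645 and 462 CPM in CDC-EpiC, and 2018, 2271 and 2239 CPM in pEpiC. The 3 kinds did not overlap, with CDC highest and the clone lowest. Thbs1 was 10.6-fold lower in CDC-EpiC than in CDC (log2 change −3.41 ± 0.16, edgeR adjusted p = 8.24e-11), 2.49-fold lower in pEpiC than in CDC (−1.31 ± 0.09, adjusted p = 4.60e-07) and 4.39-fold lower in the clone than in pEpiC (−2.13 ± 0.16, adjusted p = 7.45e-07). On log2(TPM + 1) the difference of pEpiC from CDC was −0.81 (adjusted p = 8.06e-05), and with the length trend removed it was −1.73 (adjusted p = 1.33e-08).

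Its close relative thrombospondin 2 (Thbs2, which lacks the sequence that activates TGF-beta) kept the fall in the clone but not the order of the other kinds. CDC libraries were at 273, 227 and 315 CPM, CDC-EpiC at 77.5, 95.2 and 82.0 CPM, and pEpiC at 843, 920 and 874 CPM. The kinds did not overlap, and pEpiC was highest. Thbs2 was 3.21-fold lower in CDC-EpiC than in CDC (log2 change −1.68 ± 0.11, edgeR adjusted p = 3.40e-09), 3.14-fold higher in pEpiC than in CDC (1.65 ± 0.10, adjusted p = 2.56e-07) and 10.4-fold lower in the clone than in pEpiC (−3.38 ± 0.08, adjusted p = 3.12e-10). The ratio of Thbs1 to Thbs2 (TPM over TPM) was 20.8, 20.3 and 18.0 in CDC, 5.01, 6.87 and 5.71 in CDC-EpiC, and 2.42, 2.50 and 2.60 in pEpiC. The paralogs have transcripts of nearly the same length (5924 and 5976 bases), so this ratio is little touched by the length trend.

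**Figure D3:**
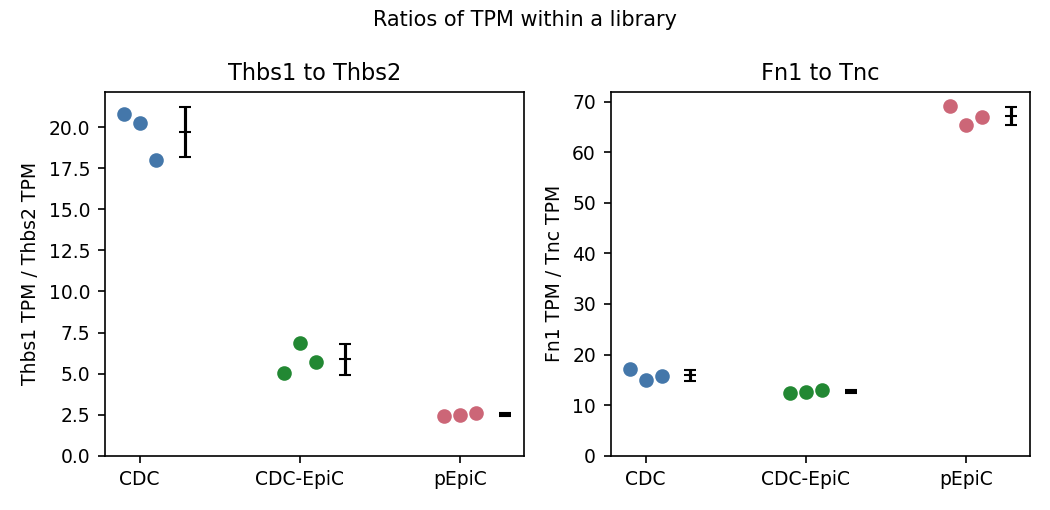
Ratio of Thbs1 to Thbs2 and of Fn1 to Tnc in each library, TPM over TPM, on linear axes from 0. Coloured points are libraries and black marks the mean with its SD (n = 3). The Thbs1 to Thbs2 ratio steps down from 19.7 in CDC to 5.86 in CDC-EpiC and 2.51 in pEpiC, and the Fn1 to Tnc ratio is 67.2 in pEpiC against 15.9 and 12.7.

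Sparc, a collagen-binding glycoprotein needed for the assembly of fibrillar collagen, was at 3629, 3280 and 3909 CPM in CDC, 3628, 4441 and 4415 CPM in CDC-EpiC, and 8162, 8123 and 8429 CPM in pEpiC. The pEpiC libraries stood well above the rest and were the least scattered. Sparc was 2.22-fold higher in pEpiC than in CDC (log2 change 1.15 ± 0.07, edgeR adjusted p = 2.51e-07) and 1.98-fold lower in the clone than in pEpiC (−0.99 ± 0.08, adjusted p = 1.74e-06). Between the clone and CDC, whose ranges overlapped, the change was 0.20 ± 0.10 (adjusted p = 0.0985). It passed under library size alone (0.26, adjusted p = 0.0260), on log2(TPM + 1) (0.28, adjusted p = 0.0439), without CDC-EpiC library 1 (0.28, adjusted p = 0.0169) and without CDC library 3 (0.26, adjusted p = 0.0407).

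Sparcl1, the anti-adhesive relative of Sparc, was a weakly expressed gene in CDC and the clone. It had 68, 36 and 98 counts in CDC, 16, 29 and 22 in CDC-EpiC, and 1918, 1838 and 1785 in pEpiC (80.4 ± 2.53 CPM; SD, n = 3). No 2 kinds overlapped. It was 25.4-fold higher in pEpiC than in CDC (log2 change 4.67 ± 0.19, edgeR adjusted p = 1.48e-08), 80.4-fold lower in the clone than in pEpiC (−6.33 ± 0.11, adjusted p = 6.03e-11) and 3.08-fold lower in the clone than in CDC (−1.62 ± 0.33, adjusted p = 0.000474). On log2(TPM + 1), which compresses low values, the last change was −0.82 (adjusted p = 0.00201).

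Smoc2, a calcium-binding protein of the Sparc family that sits in basement membranes, was the only member tested that rose in the clone. It had 53, 48 and 65 counts in CDC, 365, 577 and 481 in CDC-EpiC, and 2700, 2742 and 2524 in pEpiC. The kinds did not overlap, and the clone lay between CDC and pEpiC. Mean levels were 2.52 ± 0.389, 21.2 ± 5.03 and 116 ± 4.63 CPM (SD, n = 3). Smoc2 was 8.36-fold higher in CDC-EpiC than in CDC (log2 change 3.06 ± 0.18, edgeR adjusted p = 7.39e-10), 44.4-fold higher in pEpiC than in CDC (5.47 ± 0.09, adjusted p = 1.01e-10) and 5.47-fold lower in the clone than in pEpiC (−2.45 ± 0.13, adjusted p = 5.51e-08). Of the members that passed in both comparisons with CDC, Smoc2 was higher in both, Thbs1 was lower in both, and Sparcl1, Thbs2 and Spp1 were lower in the clone and higher in pEpiC.

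Osteopontin (Spp1, an integrin- and Cd44-binding phosphoprotein made by macrophages and by matrix-forming cells) was at 22.4, 22.1 and 25.5 CPM in CDC and 8.05, 6.63 and 5.76 CPM in CDC-EpiC. In pEpiC it was at 583, 196 and 167 CPM, so library 1 stood apart from the other 2. The kinds did not overlap. Spp1 was 3.44-fold lower in the clone than in CDC (log2 change −1.78 ± 0.12, edgeR adjusted p = 3.22e-09) and 46.4-fold lower than in pEpiC (−5.54 ± 0.53, adjusted p = 4.78e-06), and 13.1-fold higher in pEpiC than in CDC (3.71 ± 0.44, adjusted p = 2.58e-05). Without pEpiC library 1 the mean in pEpiC was 181 CPM, the change from CDC was 2.91 (adjusted p = 2.21e-09) and that of the clone from pEpiC was −4.74 (adjusted p = 8.65e-12).

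The same library carried more macrophage transcript. Its Spp1 level was 3.22 times the mean of the other pEpiC libraries, while the other 9 members were at 0.884 to 1.16 times. All 10 macrophage markers were raised in it, from 2.46 times (Lyz2) to 3.08 times (C1qb). Only 46 of 9222 genes of at least 10 CPM (0.499%) were over 2 times, and the median was 0.994. Ptprc, which marks all leukocytes, had 355, 128 and 146 counts in the pEpiC libraries, 0, 0 and 1 in CDC and 0 in every CDC-EpiC library. In all, 4 of the 10 markers in CDC and 7 of 10 in the clone were at 3 counts or fewer in every library, against none in pEpiC. How far these cells account for the Spp1 of pEpiC was not tested.

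**Figure D4:**
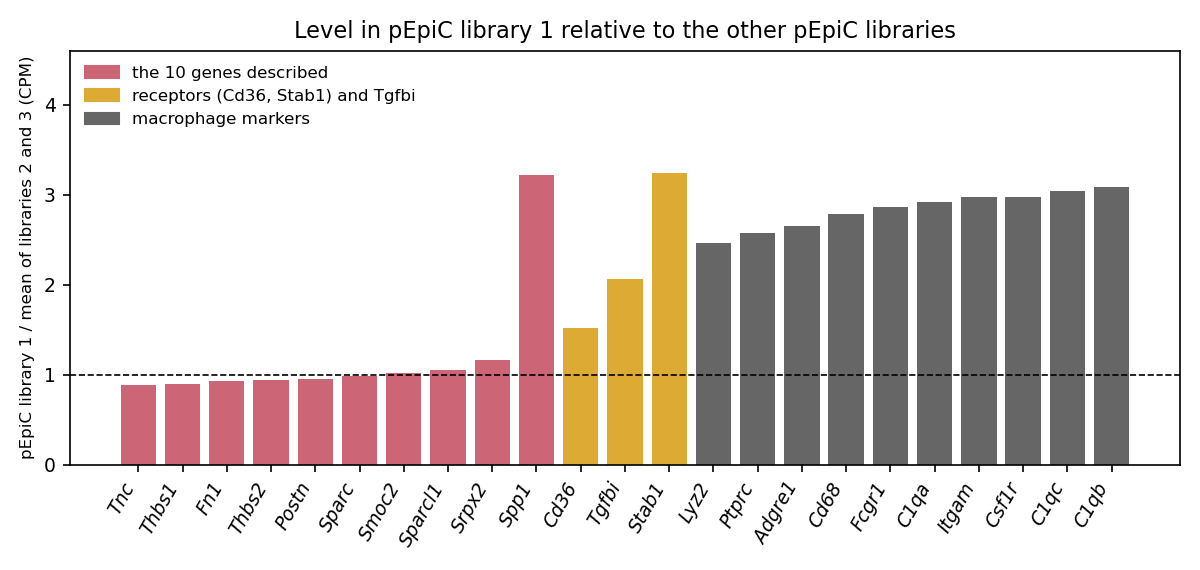
Level in pEpiC library 1 divided by the mean of pEpiC libraries 2 and 3 (CPM over CPM), with a dashed line at 1. Of the 10 genes described, Spp1 is at 3.22 and the others lie between 0.884 and 1.16. The 10 macrophage markers lie between 2.46 and 3.08, the receptors Stab1 at 3.24 and Cd36 at 1.52, and Tgfbi at 2.06.

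Other matricellular genes were taken as a list of 26, among them the CCN family, further tenascins, thrombospondins and Sparc relatives, of which 24 were in the table. In CDC-EpiC against CDC, 14 were tested, 3 were higher and 9 lower, with a median log2 change of −1.60 against 0.00 over all genes, of which 68.8% were called (34.2% higher, 34.6% lower). The falls were led by Wisp2 (Ccn5) at −5.69 ± 0.11, from 544 to 10.6 CPM, Wisp1 (Ccn4) at −4.70 ± 0.12 and Nov (Ccn3) at −4.49 ± 0.16. Ctgf (Ccn2, a gene inducible by TGF-beta and YAP) fell from 1045 to 78.8 CPM (−3.74 ± 0.18), and Fstl1, a factor secreted by the epicardium, from 541 to 38.4 CPM (−3.82 ± 0.09). Spon2, an F-spondin relative, rose from 30.7 to 287 CPM (3.22 ± 0.09). The edgeR adjusted p of these 6 lay between 1.27e-14 (Wisp2) and 1.03e-10 (Ctgf).

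Against CDC, pEpiC had 7 of 14 list genes higher and 4 lower, with a median of 0.24 against 0.02 over all genes, of which 78.3% were called (39.8% higher, 38.5% lower). Srpx passed the filter on low counts through pEpiC alone, and without it 6 of 13 were higher and 4 lower, with a median of 0.16. A test against 1.5-fold called 6 of the 14, beside 5549 of all 13526 genes tested. On log2(TPM + 1), 10 of the 14 were higher and 2 lower, beside 8237 and 2822 of all genes. Tgfbi, an integrin-binding relative of periostin, was higher by 4.11 ± 0.34 (edgeR adjusted p = 1.56e-06), from 2.08 to 37.1 CPM. Like Spp1 it was raised in pEpiC library 1, to 2.06 times the others, and without that library its change was 3.67. Spon1 was higher by 3.50 ± 0.21 and Fstl1 by 1.06 ± 0.07, while Cyr61 (Ccn1) at −1.58 ± 0.07 and Smoc1, the paralog of Smoc2, at −1.17 ± 0.07 were lower. Srpx, the paralog of Srpx2, showed the same split as Srpx2 itself, with 2, 0 and 0 counts in CDC, 1, 0 and 0 in CDC-EpiC, and 504, 511 and 549 in pEpiC.

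In the clone against pEpiC, 2 of 15 list genes were higher and 11 lower, with a median of −3.22 against −0.02 over all genes, of which 81.9% were called (40.3% higher, 41.5% lower). Without Srpx and Thbs4, which passed the filter through 1 kind alone, 1 of 13 was higher and 10 were lower, with the same median. Wisp2 (−5.53 ± 0.10), Fstl1 (−4.93 ± 0.07), Wisp1 (−4.90 ± 0.11), Nov (−4.45 ± 0.08) and Spon1 (−3.72 ± 0.14) were the lowest besides Srpx, all with an edgeR adjusted p of 4.58e-09 or less. Between pEpiC and CDC the same 3 CCN genes moved far less, at −0.20 ± 0.08 for Wisp2 (adjusted p = 0.0379), 0.16 ± 0.07 for Wisp1 (adjusted p = 0.0713) and −0.08 ± 0.12 for Nov (adjusted p = 0.559).

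Receptors of these proteins were taken as a list of 18 integrin chains and other surface proteins. In the clone against CDC, 16 were tested, 2 were higher and 12 lower, with a median of −0.84 against 0.00 over all genes, of which 68.8% were called (34.2% higher, 34.6% lower). Itgb5, the partner of alpha v in a receptor for periostin and vitronectin, fell from 243 to 19.0 CPM (log2 change −3.68 ± 0.08, edgeR adjusted p = 1.89e-14). Cd44, the hyaluronan and osteopontin receptor (−2.56 ± 0.07), Itga5, the alpha chain of the main fibronectin receptor (−1.75 ± 0.11), and Plaur, the urokinase receptor that Srpx2 binds (−1.42 ± 0.11), fell as well. Itgb8, which with alpha v activates latent TGF-beta, rose by 1.15 ± 0.13 (adjusted p = 1.56e-06), from 7.75 to 17.3 CPM.

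Of 17 receptors tested between pEpiC and CDC, 9 were higher and 5 lower, with a median of 0.31 against 0.02 over all genes, of which 78.3% were called. Cd36 passed the filter through pEpiC alone, and without it 8 of 16 were higher and 5 lower, with a median of 0.23. Among the integrin alpha chains, Itga9, which binds tenascin-C and osteopontin, was higher in pEpiC by 3.31 ± 0.08 (63.4 against 6.17 CPM), Itga8 by 3.18 ± 0.16 and Itga4 by 3.00 ± 0.09. Itgav was higher by 0.31 ± 0.07 (edgeR adjusted p = 0.00344), and Itga5 did not pass (0.15 ± 0.07, adjusted p = 0.0819). The counts depended on how length was treated. With the length trend removed, 8 of the 17 receptors were higher and 7 lower, beside 5372 and 4724 of all genes. On log2(TPM + 1), 12 were higher and 5 lower, beside 8237 and 2822 of all genes. A change as small as that of Itgav, whose transcript has 7156 bases, is therefore uncertain. Plaur was lower (−1.60 ± 0.09, edgeR adjusted p = 1.62e-07). Stab1, a scavenger receptor that takes up Sparc and is made by macrophages, was higher by 4.93 ± 0.57 and, without pEpiC library 1, by 4.13. The thrombospondin receptor Cd36 had 6, 6 and 1 counts in CDC, 0, 0 and 1 in CDC-EpiC, and 512, 315 and 354 in pEpiC.

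In the clone against pEpiC, 4 of 17 receptors were higher and 11 lower, with a median of −1.55 against −0.02 over all genes, of which 81.9% were called. Without Cd36, 4 of 16 were higher and 10 lower, with a median of −1.41. Itga9 (−6.35 ± 0.19, and −6.94 without CDC-EpiC library 2), Itgb5 (−5.08 ± 0.06), Itga8 (−3.62 ± 0.15) and Itga4 (−3.36 ± 0.09) were lower, each with an edgeR adjusted p of 8.76e-09 or less. Stab1 was lower too (−5.73 ± 0.64, adjusted p = 1.43e-05, and −4.93 without pEpiC library 1). The fibronectin receptor chain Itga5 was at 137 ± 12.2 CPM in CDC, 40.9 ± 6.49 in CDC-EpiC and 156 ± 4.40 in pEpiC.

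**Figure D5:**
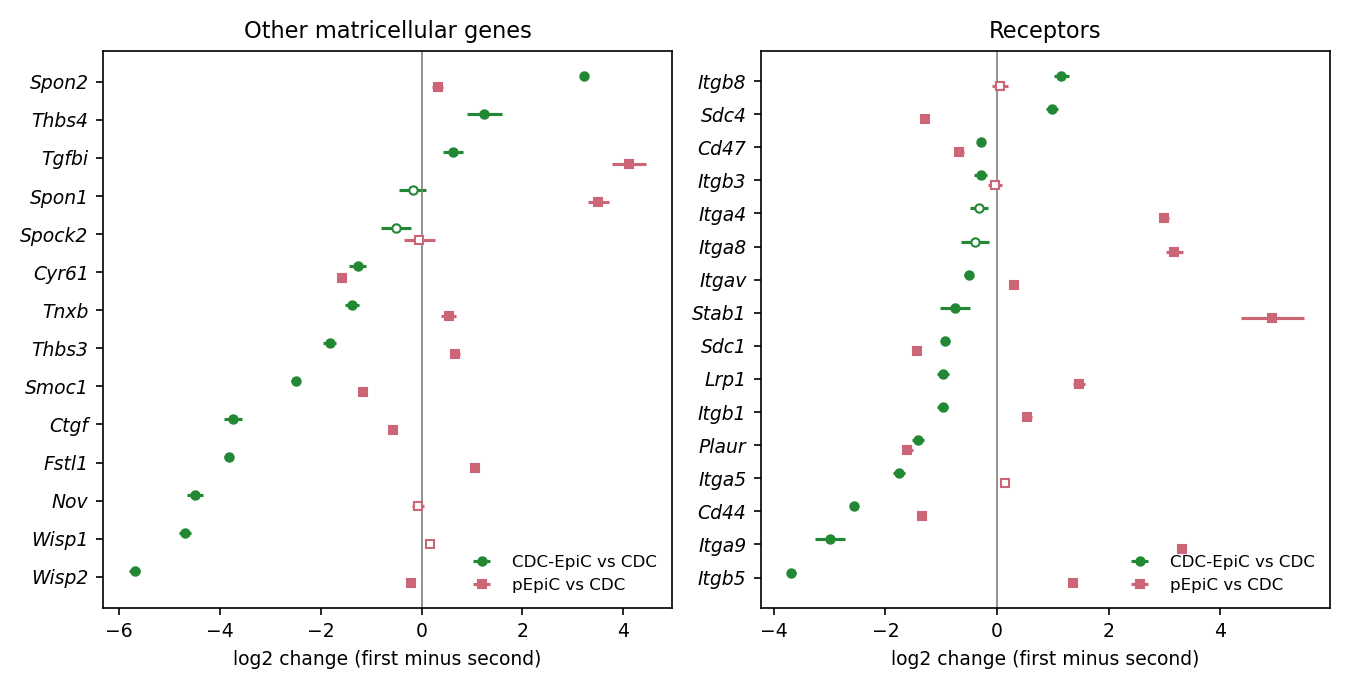
Log2 changes with standard errors of the other matricellular genes (left) and of the receptors (right) tested in the clone against CDC, ordered by that change, beside their changes in pEpiC against CDC. Filled symbols have an edgeR adjusted p under 0.05. Circles (clone) lie mostly left of 0, from Wisp2 at −5.69 and Itgb5 at −3.68, whereas squares (pEpiC) lie on both sides.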

How the data were processed

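Messenger RNA of CDC, CDC-EpiC and pEpiC (3 library columns each) was selected on oligo(dT) beads, primed with random hexamers and read in pairs on a BGISEQ-500. The authors deposited 1 table with expected counts, FPKM (fragments scaled to length and depth) and TPM for each library. Of the expected counts, 30.3% of values were not whole. The submitters' processing notes name HISAT2 2.0.4, Bowtie2 2.2.5, RSEM 1.2.12 and DESeq2 1.4.5 and the build mm10, without their roles. The authors' 9 columns of means were not used. Depth was 22008833 to 22756045 counts per library, and intervals cover counting error only, since PCR copies are not independent molecules.

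Expected counts were rounded and fitted over the whole table with edgeR 4.0.16 (R 4.3.3) on the 6 libraries of each pair of kinds, after filterByExpr (minimum count 10, minimum total 15) and TMM, with glmQLFTest and Benjamini-Hochberg adjustment at 0.05. Levels are TMM-scaled CPM (counts per 1000000) or the deposited TPM, and counting intervals are 95%. A gene at 3 counts or fewer in every library of a kind was treated as at the floor. No 2 libraries of a kind agreed within sampling noise (chi-square per degree of freedom 4.89 to 23.0), so none was merged. The code was tested on simulated data with known changes. Alternatives were DESeq2 1.42.0, RLE or library size alone, other filters, 1 fit of all 3 kinds, limma 3.58.1 on log2(TPM + 1) or log2(FPKM + 1), a length offset, a test against 1.5-fold, a replicate block and leaving out each library.

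The members, lists and tests were chosen with earlier results of these data known, and the members were proposed from them. From the lists, genes were named that passed the test with at least 2-fold change and 10 CPM in the higher kind, at most 6 per list and comparison by size of change. For Postn, Srpx2 and Fn1, the 3 genes of nearest profile were named. Upk3b, Wt1, Tcf21, Ptprc, Lyz2 and C1qb were named as markers a result turns on, and Itga5, Itgav and the 3 CCN genes are given in further comparisons chosen after their values were seen. Promoters came from RefSeq and positions from GENCODE M21. Figures used Python 3.11.15, pandas 2.3.3, NumPy 2.4.6 and matplotlib 3.10.9.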

Additional observations from a re-analysis of the deposited data

How the results depend on the processing

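Over 54 tested gene results and 916 alternatives, 907 kept their direction and their side of the threshold. List genes entered this tally only where they had passed with at least 2-fold change and 10 CPM. Their stability was thus largely set by that choice. Postn, Srpx2 and Fn1 against pEpiC (6 results, chosen by level) and Srpx and Cd36 against pEpiC (4 results, whose filter fixed their direction) are not counted. The 9 that did not belong to 4 genes in CDC-EpiC against CDC, none of which passed at first. Fn1 passed by DESeq2 (−0.26) and without CDC library 2 (−0.40), Sparc under library size alone (0.26), on log2(TPM + 1) (0.28), without CDC-EpiC library 1 (0.28) and without CDC library 3 (0.26), and Postn without CDC library 1 (−1.26). Tnc turned sign without CDC-EpiC library 2 (−0.032) and without CDC library 2 (−0.049), over a range of −0.049 to 0.16. The cause was not tested. Leaving out a library gave 5 to 6 members called in that comparison and 7 in each of the others. Of the counts of called genes, the other matricellular genes of pEpiC against CDC fell from 11 to 6 in the test against 1.5-fold, which is stricter by construction. Leaving out list genes below the minimum count in every library of 1 kind, an alternative chosen after seeing the data, gave 10 called in place of 11 for the same list and kept every other list count within 1.5 times. Under that test 3664, 5549 and 6578 of all genes were called in the 3 comparisons, in place of 8928, 10593 and 11091. On log2(FPKM + 1) and log2(TPM + 1), which add a pseudocount of 1, the changes of genes with low values (Sparcl1, Smoc2, Srpx, Spon1, Cd36, Stab1 and the integrin alpha chains) were mostly smaller. Smoc2 in the clone against pEpiC was larger on log2(TPM + 1), at −2.77 in place of −2.45. The part of the pseudocount was not tested.

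The library numbers gave no clear pairing of the kinds. Correlations of same-numbered deviations were −0.09 to 0.04 for CDC with CDC-EpiC, −0.02 to 0.14 for CDC with pEpiC and −0.01 to 0.09 for CDC-EpiC with pEpiC. In the same order, 1, 4 and 3 of 6 libraries correlated best with their own number. Such values cannot exclude a shared source or batch. With the replicate block, 5, 7 and 7 members and 8831, 10604 and 11096 genes were called, and no call on a member changed. Counts of a few reads (Postn and Srpx2 in CDC and the clone, Srpx and Cd36 in the clone) limit those comparisons to bounds and intervals.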
